A study of Mus musculus with 30 samples.

Results

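Mueller glia and astrocytes are the main supporting cells of the retina and the brain. Both clear glutamate from synapses, turn it into glutamine, buffer potassium and move water at endfeet that contact vessels and other fluid borders. The expression of 8 genes by which such glia are recognised was followed in mice lacking the circadian gene Per3 and in wild-type (WT) littermates. The genes were Glul (glutamine synthetase), Slc1a2 and Slc1a3 (the glutamate transporters GLT-1 and GLAST), Aqp4 (the endfoot water channel aquaporin-4), Kcnj10 (the inward rectifier potassium channel Kir4.1), Gfap (the intermediate filament protein of astrocytes and of stressed Mueller glia), Apoe (apolipoprotein E, the lipid carrier that glia secrete) and Aldh1l1 (a folate enzyme used as an astrocyte marker). Every probe carrying one of these gene names in the hypothalamus array files was taken and matched to the eye arrays by its probe name, which gave 20 of the 41174 probes that were not controls. There were 5 probes for Slc1a2, 3 each for Glul, Slc1a3, Aqp4 and Gfap, and 1 each for Kcnj10, Apoe and Aldh1l1.

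The mice were adult males on the C57BL/6J background. In the Per3-/- mice a neomycin cassette replaces part of the Per3 gene in every cell of the body. All animals of both genotypes were killed in the light of the 17th ultradian cycle of 3.5 h light and 3.5 h dark, so there was no group in an ordinary light-dark cycle. Each mouse gave a whole eye and a block of hypothalamus around the optic chiasm, each hybridised to its own 1-colour array, leaving 7 WT and 7 Per3-/- eyes and 8 WT and 8 Per3-/- hypothalami here. In 14 mice both tissues are present, matched by genotype and replicate number, and the animal numbers in the array names match in 14 of 14, although no label states outright that the tissues came from 1 animal. Whole eye holds lens, muscle, pigment epithelium and retina together, and only the retina holds Mueller glia.

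Values are log2 processed signals from which the 75th percentile of the same array was subtracted, so that 0 stands for that percentile. Of the 20 probes, 17 were well above background on all 30 arrays. The exceptions were 1 probe of Slc1a2 (27 arrays) and 2 of Slc1a3 (24 and 2 arrays), and no member probe was saturated. Where a gene had several probes, the one of highest mean signal is reported unless another is named, and levels are not compared between probes.

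Probes that lie in coding sequence are shown for 4 of the genes because the results turn on where a probe sits. Each is read 5′ to 3′ on the strand of its transcript, with mm9 positions. The Slc1a2 probes show where its transcripts part, with the stop codon of variant 3 in capitals. That stop follows 16 codons in the probe, and the upstream probe ends 35 bases before it begins. By position the upstream probe lies in coding sequence before the point where these forms part. The forms known as GLT-1a and GLT-1b have different carboxyl ends. Which cells of the eye or the hypothalamus made each form was not tested.
Slc1a2, upstream coding probe (A_52_P168496, chr2:102617706-102617765, plus strand): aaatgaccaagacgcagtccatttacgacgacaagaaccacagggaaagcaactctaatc
Slc1a2, variant 3 end (A_51_P477875, chr2:102617801-102617860, plus strand): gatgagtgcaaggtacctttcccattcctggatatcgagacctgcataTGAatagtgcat
Glul, coding probe (A_52_P143866, chr1:155751765-155751824, plus strand): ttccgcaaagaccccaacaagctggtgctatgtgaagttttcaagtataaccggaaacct
Apoe, coding probe (A_51_P171999, chr7:20281732-20281791, minus strand): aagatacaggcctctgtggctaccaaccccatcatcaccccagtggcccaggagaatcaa
Aldh1l1, coding probe (A_51_P504546, chr6:90548335-90548895 with an intron between its parts, plus strand): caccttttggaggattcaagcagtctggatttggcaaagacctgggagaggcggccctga
The remaining probes are not printed, since most lie outside coding sequence. The 4 Slc1a2 probes other than the clone probe A_52_P311194 follow the plus strand, whereas A_52_P311194, designed on a testis cDNA clone, follows the minus strand.

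The arrays were alike within each tissue, with 68.0% to 80.7% of probes well above background and a median correlation with the other arrays of the tissue of at least 0.9862. The tissues were run on separate slides, 4 for each, so tissue and slide cannot be told apart, while both genotypes were on every slide. Marker lists matched the tissue labels. The photoreceptor list averaged 5.63 to 6.03 in the eye and -6.49 to -5.60 in the hypothalamus. Some arrays stood apart. The pituitary markers Gh, Prl, Pomc and Tshb averaged 7.09 in the hypothalamus of Per3-/- mouse 1 and 2.10 in that of WT mouse 5, against -3.58 to -1.82 in the other 14. The 2 eyes of slide 1, WT mouse 1 and Per3-/- mouse 2, held the highest and the lowest level of oligodendrocyte genes. Results are therefore also given without these 4 arrays where that changes them.

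**Figure D1:**
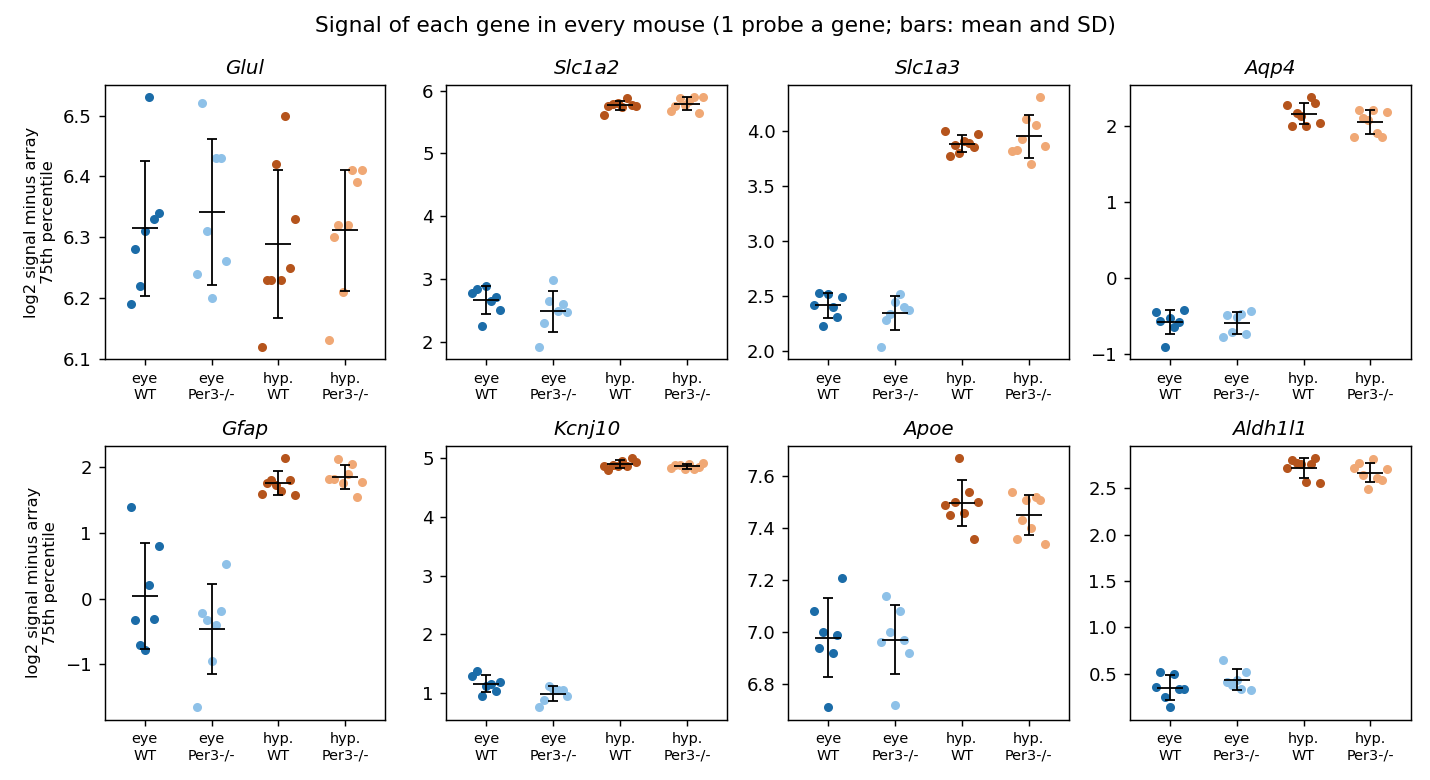
Signal of the 8 genes (vertical axis, log2 signal minus the array's 75th percentile, with its own range in each panel) in every mouse, by tissue and genotype, with mean and SD bars. The tissues separate for every gene except Glul, the genotypes overlap in every panel, and the eyes spread most for Gfap, from -1.65 to 1.39.

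The first question was how the glial genes differ between the 2 tissues. Most were lower in the eye, by very unequal amounts. Kcnj10 and Slc1a2 were lower in the eye than in the hypothalamus by 14-fold and 9.23-fold, Aqp4 by 6.45-fold, Aldh1l1 by 4.92-fold, Gfap by 4.02-fold and Slc1a3 by 2.91-fold. Apoe was lower by 1.41-fold, and the brightest Glul probe gave nearly the same value in both. In whole tissue, fewer glial cells, less RNA per glial cell and signal from cells other than glia cannot be told apart.

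Kcnj10 separated the tissues most clearly. In the eye its lowest, median and highest values were 0.95, 1.15 and 1.38 in WT mice and 0.76, 1.05 and 1.13 in Per3-/- mice. In the hypothalamus they were 4.79, 4.88 and 5.0 in WT mice and 4.81, 4.87 and 4.92 in Per3-/- mice. No eye came within 3 log2 units of any hypothalamus. The difference, eye minus hypothalamus, was -3.80 ± 0.04 (SE, 30 arrays, limma with mice as random blocks, adjusted p = 5.2e-34). Kir4.1 carries the potassium currents of Mueller glia and astrocytes alike.

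For the glutamate transporters, Slc1a2 ran from 1.92 to 2.98 over the 14 eyes and from 5.61 to 5.89 over the 16 hypothalami. The tissues did not overlap, and the difference was -3.21 ± 0.07 (adjusted p = 3.6e-26). Slc1a3, the transporter that Mueller glia rely on most, ran from 2.04 to 2.53 in the eye and from 3.70 to 4.31 in the hypothalamus. Its difference of -1.54 ± 0.05 (adjusted p = 9.8e-22) was under that of Slc1a2, though how the 2 genes compare was not tested. The other Slc1a3 probe that could be measured, well above background in 8 of 14 eyes, gave -2.34 ± 0.16.

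Over the eyes Aqp4 ran from -0.90 to -0.42, and over the hypothalami from 1.85 to 2.37, with no overlap. Its 3 probes gave differences of -2.69 ± 0.05, -2.26 ± 0.07 and -2.03 ± 0.07. Aldh1l1 was at 0.14 to 0.65 in eyes against 2.49 to 2.82 in hypothalami, again with no overlap, and differed by -2.30 ± 0.04 (adjusted p = 2.7e-28). Apoe was at 6.71 to 7.21 in eyes against 7.34 to 7.67 in hypothalami. The Apoe ranges came close without overlapping, and the difference was -0.50 ± 0.04 (adjusted p = 8.1e-12).

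Over the 20 probes, 17 were lower in the eye and 1 was higher at an adjusted p under 0.05. The 17 include the Slc1a3 probe A_51_P333324, which was well above background on 0 of the 14 eye arrays. That count has to be read against an array on which 83.1% of probes differed between the tissues, 35.2% lower and 47.9% higher. The tissues did not overlap for 15 of the 20 probes, against 48.9% of all probes. The median difference was -2.02 over the 20 probes and 0.19 over all 41174. The latter depended on the scaling, being -0.07 after quantile normalization and 0.38 after normexp background correction, and the 8 genes kept their directions relative to 0 under all 3 scalings, with Glul called under none. Relative to the median probe, Kcnj10 was at -4.00, Apoe at -0.70 and the brightest Glul probe at -0.17.

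**Figure D2:**
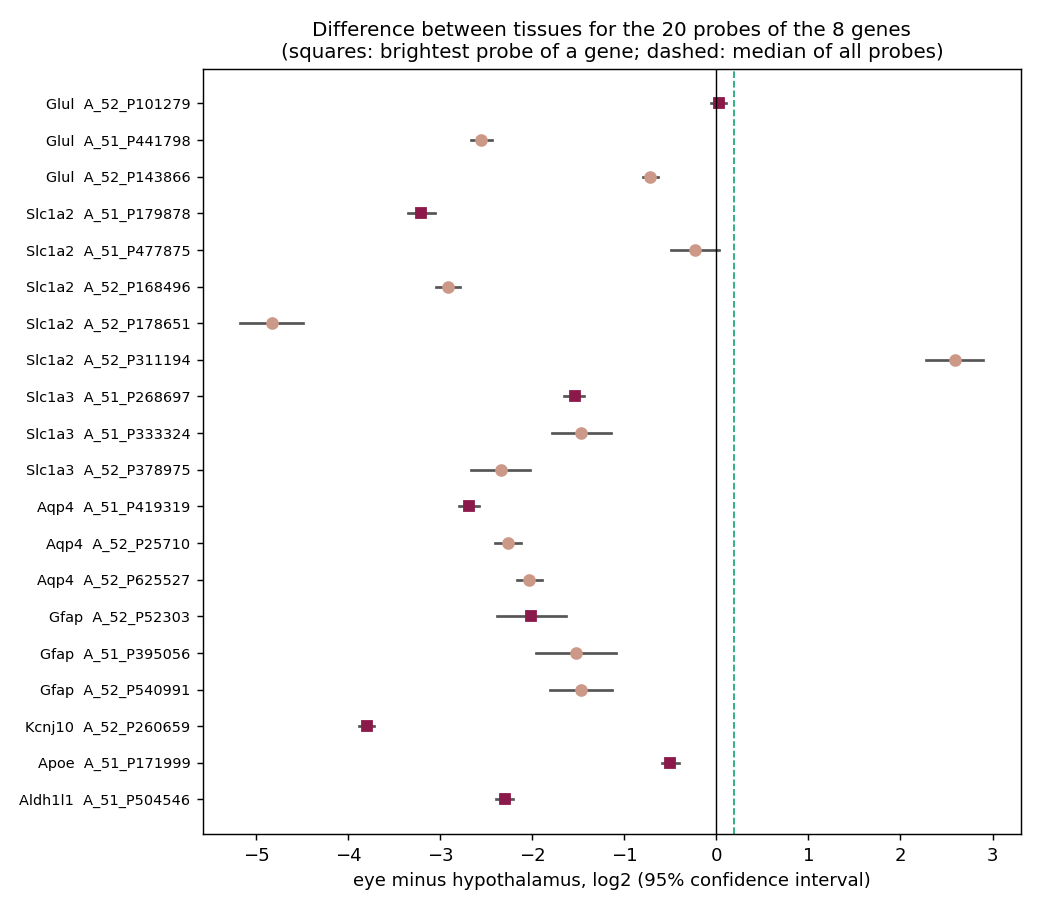
Difference between the tissues (horizontal axis, eye minus hypothalamus in log2, with 95% confidence intervals) for the 20 probes, with a square for the brightest probe of each gene. Of the 20, 17 lie below 0 at an adjusted p under 0.05, Kcnj10 at -3.80, while probes of Slc1a2 run from -4.83 to 2.59 and those of Glul from -2.56 to 0.03.

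Probes of a single gene did not give a single answer for Slc1a2 and Glul. The variant 3 end of Slc1a2 was nearly level between the tissues while the coding probe just upstream of it was far lower in the eye. For Glul, the probe in the middle of the transcript was far lower in the eye, the coding probe moderately lower, and the probe nearest the 3′ end level.

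At the variant 3 end, values were -0.19, 0.54 and 0.75 (lowest, median, highest) in WT eyes and -0.15, 0.49 and 0.69 in Per3-/- eyes. In the hypothalamus they were 0.05, 0.81 and 1.40 in WT mice and -0.15, 0.60 and 1.03 in Per3-/- mice. The tissues overlapped throughout, and the difference of -0.23 (95% interval -0.49 to 0.03) did not pass the test (limma, adjusted p = 0.095). The upstream probe ran from -0.31 to 0.59 in the eye and from 2.96 to 3.36 in the hypothalamus, without overlap, a difference of -2.91 ± 0.07 (adjusted p = 9.5e-26). Within each of the 14 mice with both tissues, the tissue difference at the variant 3 end exceeded that at the upstream probe, by 2.72 ± 0.37 (SD) log2 units (exact permutation test flipping the sign of each mouse, two-sided, p = 0.00012, the smallest it can give, and 0.00016 adjusted over 9 such comparisons of probes, which were chosen after their values were seen). This shows unequal differences, not that variant 3 was equal in the tissues.

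The probes specific to the variant 1 end lie further along the gene. The nearer of them (A_52_P178651) ran from -4.70 to -2.64 in the eye and from 0.64 to 1.02 in the hypothalamus, and its difference of -4.83 ± 0.16, or 28.5-fold, was larger than that of the upstream probe in all 14 mice (mean gap -1.91 ± 0.82, exact permutation p = 0.00012). The farther one (A_51_P179878) is the reported probe, at -3.21. The upstream probe also varied from mouse to mouse in different company in the 2 tissues. Over the eyes it followed the variant 3 end (r = 0.93, 14 mice) and not the nearer variant 1 probe (r = -0.49). Both eyes numbered 8, on slide 4, were the lowest of their genotype at the upstream probe (-0.31 in WT, -0.10 in Per3-/-) and at the variant 3 end (-0.19 and -0.15). At the nearer variant 1 probe, the slide 4 eyes read -2.64 and -3.02 in WT and -2.92 and -3.98 in Per3-/- mice. The eyes of the other slides read -4.70 to -3.86 there. How far either r rested on these eyes or on the slide was not tested. Over the hypothalami the upstream probe followed the nearer variant 1 probe (r = 0.85, 16 mice) more than the variant 3 end (r = 0.39). The farther variant 1 probe followed the upstream probe at 0.20 in the eye and 0.50 in the hypothalamus, and the nearer variant 1 probe at -0.13 and 0.45. These are descriptions over probes that share arrays. The minus-strand clone probe, dim on all arrays, was higher in the eye (-3.77 to -2.75) than in the hypothalamus (-7.29 to -5.24), by 2.59 ± 0.15, and it was well above background on 14 eye and 13 hypothalamus arrays. It reads the strand opposite to the transporter, so its gene name in the files does not make it a measure of Slc1a2.

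For Glul, the probe near the 3′ end ran from 6.19 to 6.53 in the eye and from 6.12 to 6.5 in the hypothalamus, with full overlap and a difference of 0.03 (95% interval -0.06 to 0.11). The coding probe ran from 0.69 to 1.04 in the eye and from 1.38 to 1.76 in the hypothalamus, a difference of -0.72 ± 0.04 (adjusted p = 5.9e-16). The probe between them (A_51_P441798, at chr1:155755785-155755844) ran from -0.83 to -0.04 and from 1.74 to 2.19, a difference of -2.56 ± 0.06 (adjusted p = 5.2e-26). Every one of the 14 mice showed the order middle, coding, 3′ end from most to least lowered, with mean gaps of -1.84 ± 0.18 (SD) between the first pair and -0.73 ± 0.16 between the second (exact permutation p = 0.00012 each). The statement that glutamine synthetase mRNA was level between eye and hypothalamus therefore rests on the probe chosen.

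**Figure D3:**
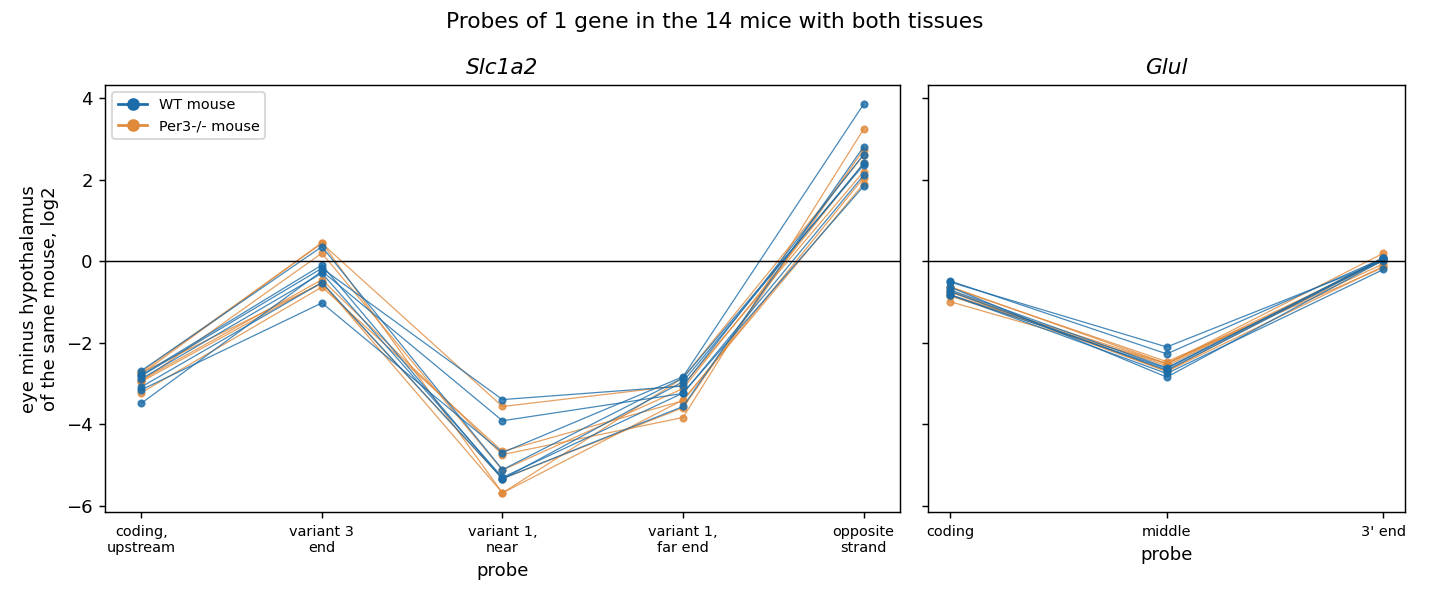
Tissue difference within each of the 14 mice (vertical axis, eye minus hypothalamus in log2) at each probe of Slc1a2 and of Glul, with a line for each mouse coloured by genotype. The lines run together from probe to probe, with means at the Slc1a2 upstream probe of -2.93 and at the variant 3 end of -0.22.

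Gfap was the most variable of the 8 reported probes in the eye. Its level differed from eye to eye by up to 8.19-fold, and it rose and fell with genes of myelin. In WT eyes the values were 1.39, -0.33, -0.70, -0.78, 0.20, -0.31 and 0.80 for mice 1, 3, 4, 5, 6, 7 and 8. In Per3-/- eyes they were -1.65, -0.22, -0.33, -0.95, -0.40, -0.19 and 0.53 for mice 2 to 8. WT mice 1 and 8 and Per3-/- mouse 8 were high, Per3-/- mouse 2 was low, and the genotypes overlapped. In the hypothalamus Gfap stayed between 1.54 and 2.13.

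The reported Gfap probe is annotated to transcript variant 1. The spread within a genotype was 0.75 log2 units in the eye (SD), above that of 97.2% of the probes well above background there, against a median of 0.18. All 3 Gfap probes shared it, with r from 0.92 to 0.99 between them over the 14 eyes. As background, Mbp, Mog and Mobp are made by oligodendrocytes, which sheathe the axons of the optic nerve and are not normally found in the mouse retina. The mean of an oligodendrocyte list of 4 genes that holds them ran from -2.46 to 2.14 over the eyes, a spread in which Mbp alone varied 23.7-fold, and Mbp and Mobp were well above background on all 14 eye arrays and Mog on 9. In the hypothalamus that mean ran only from 3.98 to 4.55.

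Over the 14 eyes, deviations of Gfap from the genotype mean correlated with those of this mean at r = 0.98 and rho = 0.99 (permutation p = 1.0e-05 for each, the smallest the 100000 resamples can give, adjusted p = 0.0016 over 160 relations of the 8 genes with 10 marker lists in 2 tissues, a family added after the data were seen). Leaving out the 2 eyes farthest from the median gave 0.98, and removing slide means gave 0.99. In the hypothalamus r was 0.41 (adjusted p = 0.58). Of all named genes well above background in the eye, Mobp, Prr18 and Mbp were the 3 most like Gfap, each at r = 0.98. Among the reported probes of the other 7 genes, the correlation with the oligodendrocyte mean in the eye ran from -0.06 for Aldh1l1 to 0.57 for Aqp4, and none passed. The upstream and variant 3 probes of Slc1a2, described without a test, ran against it, at r of -0.63 and -0.71. With that mean as a covariate, the residual SD of Gfap fell from 0.75 to 0.15, and Gfap changed by 0.55 log2 units for each unit of the markers. The labels do not say how much optic nerve stayed on each eye, and its part in the spread was not tested.

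**Figure D4:**
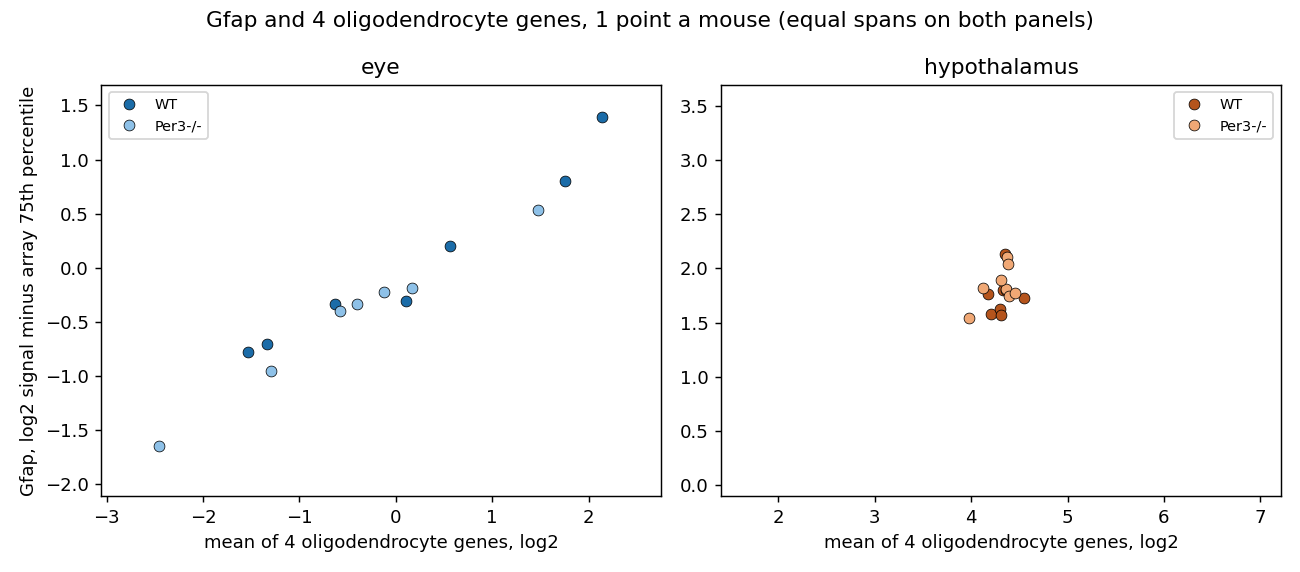
Gfap (vertical axis, log2 signal minus the array's 75th percentile) against the mean of 4 oligodendrocyte genes (horizontal axis, same scale) in each eye and each hypothalamus, with equal spans on both panels. Over the eyes the points run along a line from -1.65 to 1.39 in Gfap, while the hypothalami sit in a small cloud.

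The tissue difference of Gfap stands on these uneven eyes. Its 3 probes gave -2.01 ± 0.18, -1.53 ± 0.21 and -1.47 ± 0.17 (adjusted p of 2.5e-11, 1.5e-07 and 2.6e-09), and without the 4 arrays that stood apart the reported probe gave -2.03.

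The main question of the study was what loss of Per3 changes. For the 8 glial genes no change was detected in either tissue. None of the 20 probes was called in the eye or in the hypothalamus by limma, and none had an unadjusted p under 0.05 in either. The methods' t-test also called none. Over the whole array only 8 probes (0.0194%) were called in the eye and 17 (0.0413%) in the hypothalamus, so 0 of 20 says little more than these shares do.

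In the hypothalamus the precision was high. The differences, Per3-/- minus WT, of the 8 reported probes lay between -0.11 for Aqp4 and 0.09 for Gfap, with 95% intervals reaching no further than -0.27 and 0.28. In Aqp4, WT mice ran from 2.0 to 2.37 with a median of 2.15 and Per3-/- mice from 1.85 to 2.21 with a median of 2.09. The groups overlapped, although 3 of 8 Per3-/- mice were below every WT mouse, for each of the 3 Aqp4 probes, and the Per3-/- mean was lower on all 4 slides (-0.15 to -0.06). The difference did not pass (unadjusted p = 0.15, limma adjusted p = 0.99).

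In the eye the differences of 7 reported probes lay between -0.17 and 0.09, with 95% intervals from -0.49 to 0.25. Kcnj10 came closest, at -0.17 ± 0.08 (unadjusted p = 0.051, limma adjusted p = 1). Its values, given above, overlapped, and the Per3-/- mean was lower on each of the 4 slides, by -0.53 to -0.07. Slc1a2 was also lower on each slide, by -0.86 to -0.03, with an overall difference of -0.17 ± 0.15, while its upstream coding probe was at 0.04 ± 0.13. Without the 2 eyes of slide 1 the Kcnj10 difference was -0.11 and the Slc1a2 difference -0.06.

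Gfap had the largest difference in the eye, -0.50 ± 0.37 (95% interval -1.30 to 0.30, unadjusted p = 0.2, limma adjusted p = 1). The slides were unequal. The 2 eyes of slide 1 differed by -3.03, while the other slides gave -0.39, -0.08 and 0.23. Without slide 1 the difference was -0.08, and with the oligodendrocyte mean as a covariate it was -0.16, neither passing. The eyes of slide 1 held the highest WT value (1.39) and the lowest Per3-/- value (-1.65), so leaving them out had to raise the difference. The genotype effect of the tissues was also compared directly. None of the 20 probes differed in genotype effect between eye and hypothalamus (limma, smallest unadjusted p = 0.09), where 2 of all probes did (0.00486%).

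The next question was whether the glial genes vary together from mouse to mouse. They did so only in part. In the eye Kcnj10 rose and fell with both glutamate transporters, and in the hypothalamus Slc1a2 rose and fell with Gfap while Slc1a3 and Aldh1l1 ran in opposite directions. These 4 were the only pairs, of 28 in each tissue, to pass (permutation within genotypes, adjusted over 64 relations), and none of the 4 pairs passed in the other tissue.

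In the eye, Slc1a3 and Kcnj10 correlated at r = 0.79 (rho = 0.67, permutation p = 0.0013, adjusted p = 0.025) and Slc1a2 and Kcnj10 at r = 0.77 (rho = 0.71, p = 0.0015, adjusted p = 0.025) over the 14 mice. Slc1a2 and Slc1a3 correlated at r = 0.77 as well but did not pass (adjusted p = 0.06). Leaving out the 2 mice farthest from the median gave 0.54, 0.73 and 0.60. The gene most like Kcnj10 over the eyes was Ncan (neurocan, a proteoglycan of nervous tissue) at r = 0.92, that most like Slc1a3 was Acsl6 at 0.94, and that most like Slc1a2 was Ubr2 at 0.96. In the hypothalamus, Slc1a2 and Gfap correlated at r = 0.77 (rho = 0.76, p = 0.0015, adjusted p = 0.025) and Slc1a3 and Aldh1l1 at r = -0.71 (rho = -0.85, p = 0.0015, adjusted p = 0.025) over the 16 mice. Without the 2 farthest mice these were 0.66 and -0.74. By rank correlation the eye pairs did not pass (adjusted p of 0.16 and 0.14), and the hypothalamus pairs did (0.047 and 0.009).

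Taking out slide means left these relations at 0.90, 0.81, 0.77 and -0.71, but there were only 64 and 256 arrangements of mice within slides, too few for an adjusted p under 0.05. The eye pairs did not pass before adjustment either (permutation within slides, unadjusted p of 0.078 and 0.16). Each hypothalamus pair had an unadjusted p of 0.016. Without the 4 arrays that stood apart the 4 relations were 0.74, 0.66, 0.82 and -0.77, and none passed (adjusted p from 0.084 to 0.35). With all probes of a gene averaged, both relations of Kcnj10 were 0.04, an average that includes the minus-strand clone probe for Slc1a2 and a probe at background in the eye for Slc1a3. Without those 2 probes they were 0.24 for Slc1a2 and 0.12 for Slc1a3, and again none of the 4 relations passed. In Slc1a2 the reported probe followed the upstream coding probe at r = 0.20 in the eye, and in Slc1a3 the other measured probe followed it at 0.24.

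**Figure D5:**
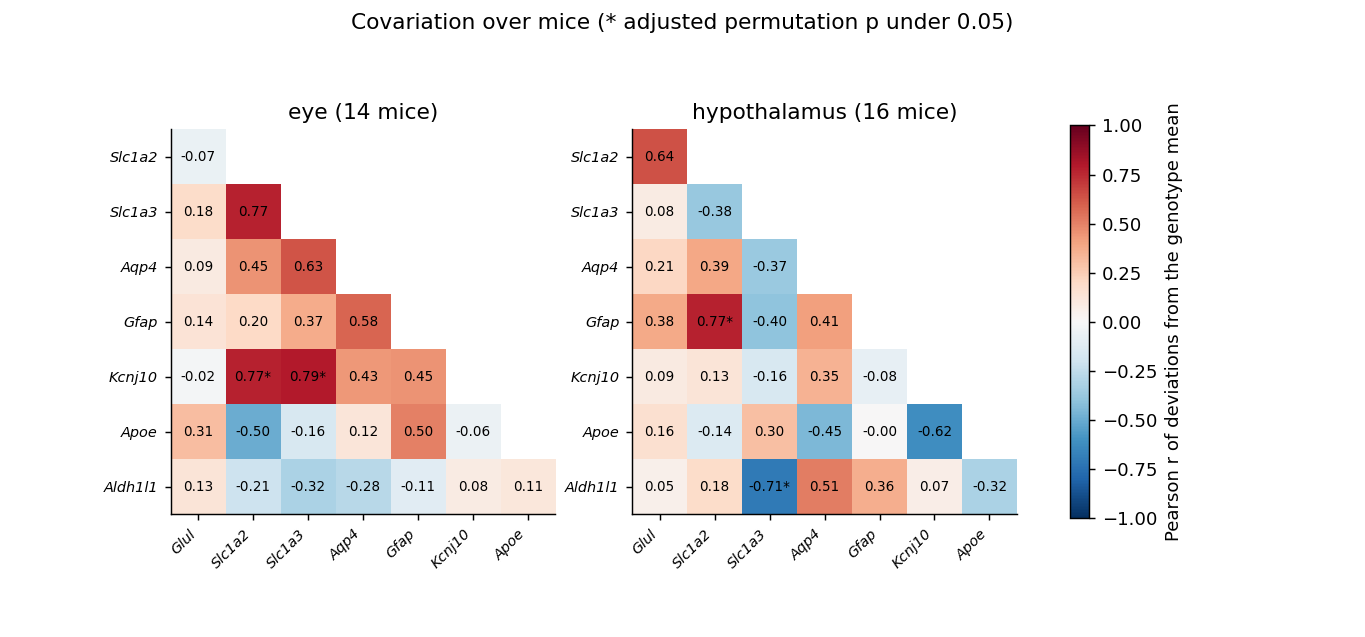
Pearson correlation over mice between the 8 genes, 1 probe a gene, in the eye (14 mice) and the hypothalamus (16 mice), with colour and number giving r and an asterisk marking an adjusted p under 0.05. The block of high values joining Slc1a2, Slc1a3 and Kcnj10 in the eye, 0.77 to 0.79, is not seen in the hypothalamus, where the same pairs run from -0.38 to 0.13.

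As a background, 5.84% of all pairs of probes well above background in the eye had r of 0.6 or more, and 3.65% in the hypothalamus. Among the 28 pairs of glial genes, 4 (14.3%) did in the eye and 2 (7.14%) in the hypothalamus. These counts depended on the processing. Without the 4 arrays that stood apart they were 2 (7.14%) and 1 (3.57%), and with all probes of a gene averaged 1 (3.57%) in each tissue. With slide means taken out they were 6 (21.4%) and 1 (3.57%). Whether pairs differ in correlation between the tissues was not tested. No relation was detected between a gene's level in the eye of a mouse and its level in the hypothalamus. The 8 correlations between tissues ran from -0.35 for Kcnj10 to 0.46 for Glul over the 14 mice (permutation, smallest adjusted p = 0.45). With slide means taken out, Slc1a3 was at 0.46 and Slc1a2 at -0.51 (permutation within slides, unadjusted p of 0.016 and 0.031). Neither passed after adjustment (permutation within slides, smallest adjusted p = 0.25).

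Genes most like a member have the highest r among 27883 probes in the eye (14 mice) or 27150 in the hypothalamus (16 mice). How high such a maximum runs by chance was not tested, for the genes named here or above. Their names are descriptions only. Over the eyes the 3 genes most like Apoe were Npr2 (0.95), Alad (0.92) and Tmem180 (0.91), those most like Aldh1l1 included Gys2 (0.82) and Zfp287 (0.79), those most like Glul were D17Wsu92e (0.83), Trap1 (0.82) and Oplah (0.81), and those most like Aqp4 were Rftn2 (0.85), Fam126b (0.84) and Ephb1 (0.83). Gys2 is the glycogen synthase of liver. Aldh1l1 in the eye also followed the mean of the 3 liver markers on the array (r = 0.76, permutation p = 0.00064, adjusted p = 0.042 over the 160 relations, but 0.3 by rank). That mean ran from -2.36 to 2.56 and was highest in Per3-/- mouse 2. It includes Ttr, which also stands in the pigment epithelium and choroid plexus lists, so it is not a measure of liver alone. Over the hypothalami Aqp4 followed the skeletal muscle markers (r = 0.76, permutation p = 0.00079, adjusted p = 0.042, but 0.16 by rank), whose mean stayed between -4.20 and -3.79. The part of these cells or tissues in either relation was not tested. In the hypothalamus the single most similar genes were Zfp326 for Glul (0.95), Spns2 for Slc1a2 (0.94), Dnahc11 for Slc1a3 (0.89), Dpy19l1 for Aqp4 (0.92), Grhl1 for Gfap (0.89), Itga1 for Kcnj10 (0.84), Hist1h2af for Apoe (0.92) and Trim29 for Aldh1l1 (0.92).

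The genes that surround the 8 in their pathways were then counted in 7 lists with 87 measured entries, 1 probe a gene. None was called between genotypes in either tissue, where 2 in the eye and 7 in the hypothalamus had an unadjusted p under 0.05 (limma). Of all 41174 probes, 743 in the eye and 1161 in the hypothalamus did. Whether the lists hold a larger share of such genes than the array was not tested. Between the tissues, 40 of the 87 entries were higher and 42 lower in the eye, against 47.9% and 35.2% of all probes, and the lists differed in direction.

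The other Mueller glia genes were mostly higher in the eye, 8 of 12 against 3 lower, with a median difference of 2.04. Rlbp1, the retinoid-binding protein of Mueller glia and pigment epithelium, was higher by 5.21 ± 0.06, Dkk3 by 3.33 ± 0.07 and Abca8a by 3.27 ± 0.08. The transcription factors Sox9 and Sox2 were lower, at -1.37 ± 0.06 and -0.61 ± 0.05, as was Gpr37 at -0.79 ± 0.07. The other astrocyte genes went the other way, 12 of 15 lower and 3 higher, with a median of -2.07. The neurotensin receptor gene Ntsr2 was lower by 7.23 log2 units in the eye (-7.23 ± 0.16), Agt (angiotensinogen) was at -5.13 ± 0.12 and the fatty acid binding protein gene Fabp7 at -4.65 ± 0.18. Mfge8 (0.84 ± 0.04), Slc15a2 (0.52 ± 0.08) and the gap junction gene Gja1 (0.24 ± 0.06) were higher.

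Among genes of glutamate and glutamine handling, 8 of 13 were lower and 4 higher in the eye. The vesicular transporters divided, with Slc17a6 at -4.86 ± 0.07 and Slc17a7 at 2.41 ± 0.12. The plasma membrane transporters did so too. Slc1a6 was at -2.93 ± 0.05, while Slc1a7, the transporter of photoreceptors and bipolar cells, was higher in the eye and well above background on 14 eye but only 5 hypothalamus arrays, so that the size of its difference was not measured. The glutamine transporter gene Slc38a5 was at -3.16 ± 0.13.

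Of the 10 endfoot partners of Aqp4 and Kcnj10, 6 were lower and 2 higher. Hepacam, whose product holds Mlc1 at endfeet, was at -5.48 ± 0.19, the partner channel subunit Kcnj16 at -4.48 ± 0.30 and Dtna (dystrobrevin) at -2.20 ± 0.03. Hepacam and Kcnj16 were uneven over the eyes, with SDs of 0.79 and 1.23, against 0.11 and 0.17 over the hypothalami. Aqp1, the water channel of secretory epithelia, was higher in the eye at 7.32 ± 0.52, with an SD of 2.09 over the hypothalami. Choroid plexus markers averaged -3.79 to 1.65 over the same hypothalami, and their part in that spread was not tested. Kcnj2 was at -0.84 ± 0.12 but at 0.04 after normexp background correction. Among the lipoprotein partners of Apoe, 8 of 11 were lower, led by Lcat (-4.80 ± 0.12), Apod (-2.50 ± 0.06) and Lrp1 (-1.40 ± 0.05), and 3 were higher, among them the receptor gene Vldlr (0.57 ± 0.06) and the sterol-sensing Nr1h3 (0.96 ± 0.07).

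The folate enzymes beside Aldh1l1 showed no common direction, 7 higher and 4 lower of 11, with a median of 0.23 close to the 0.19 of all probes. Its mitochondrial relative Aldh1l2 was higher in the eye at 2.85 ± 0.11, with Shmt1 (2.64 ± 0.09) and Tyms (2.24 ± 0.05), while Atic was at -1.15 ± 0.04, Mthfd1 at -0.77 ± 0.03 and Mthfd2 at -0.38 ± 0.05. The filament and reactive glia genes beside Gfap were higher in the eye for 13 of 15, with Stat3 the 1 lower (-0.93 ± 0.04) and a median of 2.14, opposite in direction to Gfap. Des (desmin, a muscle filament) was at 6.83 ± 0.11 and Cd44 at 4.04 ± 0.06. Lcn2 was higher too, but was well above background on only 2 hypothalamus arrays, so that the size of its difference was not measured. Skeletal muscle markers averaged 4.12 to 5.56 in the eye and -4.20 to -3.79 in the hypothalamus beside them, and the part of muscle in this list was not tested.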

How the data were processed

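Per the file headers, the authors extracted spots with Feature Extraction 10.7.1.1, and the deposited processed intensity is background-subtracted, on a linear scale, and not normalized across the series. A table of log2 values that the authors deposited for these arrays served only as an alternative. Spots with outlier flags were dropped (no more than 91 an array), spots of a probe were averaged, and log2 intensities were scaled to the 75th percentile. Genotypes were compared within each tissue, and tissues and their interaction in a fit of the 30 arrays in which mice were random blocks (correlation 0.059), by limma 3.58.1 in R 4.3.3. Benjamini-Hochberg adjustment was over 41174 probes. Correlations used deviations from genotype means and 100000 two-sided permutations (Python 3.11.15, scipy 1.17.1). The limma fits of genotype and, without the mouse block, of tissue were tested on simulated arrays. Alternatives were quantile normalization, normexp (offset 50), a filter on dim probes, the slide as a block, the replicate block, the methods' t-test, the authors' log2 values, wild-type mice only and all probes of a gene averaged. Precision is limited by how many arrays there were.

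The members and lists were chosen with earlier results of these data known. List genes are named where called between genotypes, otherwise the 3 largest tissue differences in each direction among measured probes, and some genes and a probe sequence that the rules would name are not reported here. Genes most like a member are those of highest r among probes that were well above background throughout the tissue. Replicates are separate mice. Coordinates are those of the hypothalamus files (mm9).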

Additional observations from a re-analysis of the deposited data

Results flagged for a closer look

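In 4 of the 80 sets of values (20 probes in 4 groups) a single mouse lay far from the others of its group, where a rule that flags about 1 set in 20 by chance gives 4. In the eye of WT mouse 8 the middle Glul probe was at -0.04, with the next mouse at -0.53, and the variant 3 end of Slc1a2 was at -0.19, with the next at 0.38. In the hypothalamus, Gfap was at 2.13 in WT mouse 6 (next 1.80), and the Slc1a3 probe A_51_P333324, which is not well above background on most arrays, was at -8.06 in Per3-/- mouse 2 (next -7.14).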

How the results depend on the processing

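The counts of member probes called stayed at 0 for both genotype comparisons and their difference, and within 1.5 times 18 between the tissues, under every alternative run. The count of 4 covarying pairs became 2 with normexp and 0 with slide means taken out, with all probes averaged, with measured probes of the gene's strand averaged, and without the 4 arrays that stood apart. Of the genotype differences, all uncalled, these changed sign in refitted models. In the eye Glul became -0.05 with normexp, Aqp4 became 0.02 with normexp, 0.05 under the replicate block, 0.05 without the arrays apart and 0.03 with the oligodendrocyte covariate, and Apoe became 0.00 after quantile normalization, 0.01 under the replicate block, 0.01 without the arrays apart and 0.02 with the covariate. In the difference between tissues Glul became -0.02 (quantile), -0.08 (normexp), -0.01 (replicate block) and -0.02 (arrays apart), and Apoe -0.06 (normexp). Averaging all probes of a gene, with no test, also turned Glul (-0.04 in the eye, -0.01 in the hypothalamus), Slc1a3 (0.03 and -0.10) and Aqp4 in the eye (0.01), and averaging measured probes turned Slc1a2 (-0.05) and Slc1a3 (-0.03) in the hypothalamus. The cause was not tested. Averaging all probes moved the tissue difference of Glul to -1.08, Slc1a2 to -1.72, Slc1a3 to -1.78 and Aqp4 to -2.32. Without the minus-strand Slc1a2 probe and the Slc1a3 probe at background in the eye these averages were -2.79 and -1.94. Same-numbered WT and Per3-/- mice deviated together at r from 0.002 to 0.679 in the eye, over 0.1 in 5 of 6 pairs, and from -0.204 to 0.396 in the hypothalamus, over 0.1 in 4 of 8. A mouse correlated best with its own number in 8 of 12 eyes and 2 of 16 hypothalami. Since not every pair passed 0.1, the numbers were not taken as pairing the genotypes, though in the eye they share some variation. Same-numbered mice of a tissue always shared a slide. How much of that variation belongs to the slide was not tested. The replicate block, in which the unpaired eyes of slide 1 carry no weight on genotype, left the calls at 0 and 18. Over the whole array the 8 eye probes called became 4 with normexp and 1 under the block, the 17 hypothalamus probes 10 and 5, and the 2 of the difference between tissues 1 (quantile), 0 (normexp, limma, 1099 at an unadjusted p under 0.05) and 0 (block, limma, 820). Leaving out the arrays that stood apart, the oligodendrocyte covariate and the average of measured probes were chosen after seeing the data.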
